A study of Bos taurus with 2 samples.

Results

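ZAR1 and 9 further genes of the oocyte were followed in the RNA of bull spermatozoa. The 10 genes are ZAR1, ZAR1L, GDF9, BMP15, NLRP5, NPM2, DPPA3, FIGLA, OOEP and KPNA7, and their probes were found by the gene name in the array tables. Of the 10 genes 9 had at least 1 probe under that name, 18 probes in 19 spots, out of 51282 probes for 32429 gene names. NPM2 had none. The set was selected on measured values of these same arrays, and which values these were is not recorded, so both the signals and the differences between arrays are given as a description.

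Total RNA of spermatozoa from HF crossbred breeding bulls was hybridised to 2 bovine 1-colour oligonucleotide arrays on 1 slide, 1 for bulls of high fertility and 1 for bulls of low fertility. The labels name bulls in the plural and give neither how many animals stand behind an array nor their age, and they name no treatment. With 1 array per group no difference has a replicate check, and no p-value is given. In such bulk RNA, fewer cells of a type and less RNA per cell cannot be told apart.

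These genes are best known from the egg, and transcripts of some, such as ZAR1 and GDF9, are also known from the testis. During its growth the oocyte stores RNA and protein that carry the embryo through its first divisions until its own genome is switched on, and genes whose maternal product is needed then are called maternal-effect genes. ZAR1 (zygote arrest 1) and its paralog ZAR1L are RNA-binding proteins with a zinc finger at the carboxyl end that bind stored maternal messengers. GDF9 and BMP15 are growth factors that the oocyte sends to the granulosa cells, FIGLA is the transcription factor that switches on the zona pellucida genes, NLRP5 and OOEP are subunits of the subcortical maternal complex, NPM2 and DPPA3 act on the chromatin and DNA methylation of the zygote, and KPNA7 is the importin alpha of the oocyte and early embryo.

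ZAR1 had 4 probes, numbered here by their position along the transcript. Probes 1 and 2 gave signal on both arrays and overlap by 29 bases; they are shown because the difference of ZAR1 rests on them, beside the matching probe of ZAR1L. Capitals mark the single base at which probe 1 and probe 2 differ in their overlap and, in the probe of ZAR1L, the bases identical to ZAR1. All run 5′ to 3′ as in the deposited array tables, and probe 2 is printed up to and including a stop codon.

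ZAR1 probe 1: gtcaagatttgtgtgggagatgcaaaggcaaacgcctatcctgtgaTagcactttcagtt

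ZAR1 probe 2: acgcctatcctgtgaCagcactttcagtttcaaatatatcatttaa

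ZAR1L probe 2: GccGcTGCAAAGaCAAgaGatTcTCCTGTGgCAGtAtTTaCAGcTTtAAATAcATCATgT

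The base that differs is T47C, counted from 1 at the 5′ end of probe 1, with the base of probe 1 written first. In the reading frame in which ZAR1 and ZAR1L share the most residues (13 of 19 codons compared) it lies at codon position 3 and leaves the residue unchanged, and the stop codon of probe 2 starts at its base 44. ZAR1 and the ZAR1L probe have 43 of 60 aligned bases in common (71.7%), with no identical run longer than 7 bases. Neither probe 1 nor probe 2 of ZAR1 shares a stretch of 16 bases with a probe of another gene name on the array, whereas 12.8% of all probes do. On build HGSC Btau_3.1, the build of the array tables, probe 1 lies on chromosome 6 from 69755584 to 69755643, probe 2 from 69755615 to 69755674, probe 3 from 69755649 to 69755708 and probe 4 from 69755795 to 69755854. In transcript coordinates they start at bases 1078, 1109, 1143 and 1289, so probes 3 and 4 lie downstream of the stop codon except for the first bases of probe 3.

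The ZAR1 signal was lower on the high-fertile array in all 3 spots of the probes that were bright. In the processed signal, which is the spot's brightness after background subtraction on a linear scale, the first spot of probe 1 read 37.9 ± 6.39 for high-fertile and 131.3 ± 14.9 for low-fertile RNA (± is the error estimate of the scanner software for that spot). The second spot of probe 1 read 30.4 ± 6.08 and 116.3 ± 13.7. Probe 2 read 57.0 ± 7.69 and 160.7 ± 17.6. In none of these 3 spots did the values of the arrays overlap within these errors. These values are before scaling. The 75th percentile of the probes well above background on both arrays was 186.3 on the low-fertile and 148.6 on the high-fertile array. The 7 spike-in probes went the other way and were brighter on the high-fertile array (log2 0.27, SD 0.09). The bright probes of ZAR1L, NLRP5 and DPPA3 did not overlap either, so the gap is not particular to ZAR1. The error of a spot does not measure the spread between bulls.

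To compare the arrays, each was scaled to the 75th percentile of the probes that Feature Extraction marks as well above background on both, 148.6 for the high-fertile one and 186.3 for the other. After scaling, the spots of probe 1 differed by -1.47 and -1.61 on the log2 scale, high-fertile minus low-fertile, which are 2.77-fold and 3.05-fold lower on the high-fertile array. Probe 2 differed by -1.17, or 2.25-fold lower. As a gene, ZAR1 was 2.56-fold lower on the high-fertile array (log2 -1.35, SD 0.26 over 2 probes that share bases and so are not independent). Spots of one probe differed from each other in this measure with a pooled SD of 0.28 (3049 probes), and probes of one gene with an SD of 0.42 (1774 genes). Among all 11687 genes measured on both arrays 2.44% were at least 2-fold lower on the high-fertile array. Of 1774 genes with at least 2 measured probes, 0.564% (10 genes, ZAR1 among them) had every measured probe at least 2-fold lower.

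Neither array had probe 3 or probe 4 of ZAR1 well above background. Probe 3 read 6.20 for high-fertile and 7.17 for low-fertile RNA, and probe 4 read 12.6 and 14.2. The array thus gave a ZAR1 signal at the end of the coding part and none well above background at the downstream probes, although probes 2 and 3 have 26 bases in common without a mismatch. By this flag alone, splits are common on these arrays. There were 263 pairs of probes to 1 transcript that overlap by 20 to 40 bases with at least 1 member well above background on both arrays. Of these, 36.5% had a partner that was not so on either. That share also counts partners just under the limit. How many pairs lay as far apart in signal as ZAR1 probe 2 (57.0 and 160.7) and probe 3 was not counted. Where both probes of a pair were measured (139 pairs), their differences lay a median of 0.17 apart on the log2 scale, against 0.37 for ZAR1 probes 1 and 2.

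**Figure D1:**
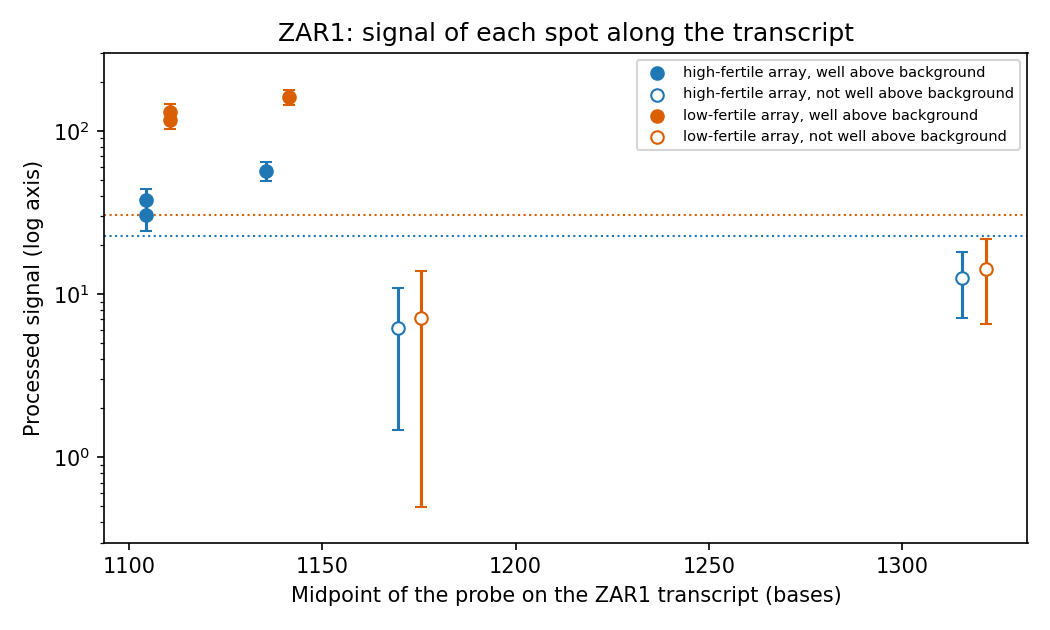
Processed signal of each ZAR1 spot (log axis) against the midpoint of its probe on the transcript in bases, with the scanner software's error estimate as bars, filled points for spots well above background and dotted lines at the lowest probe signal well above background on each array; the arrays are set slightly apart for sight. The 3 spots of probes 1 and 2 lie between 30.4 and 57.0 on the high-fertile and between 116.3 and 160.7 on the low-fertile array, and probes 3 and 4 lie below the dotted lines on both.

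The spots around ZAR1 on the slide did not share its difference. One spot of probe 1 and that of probe 2 lie near each other (rows 336 and 339, columns 25 and 24). The other spot of probe 1 lies at row 374 and column 18. All 3 thus lie in the same part of the slide, while the dim probes 3 and 4 lie at columns 134 and 113. The difference was therefore not repeated in a distant part of the slide. Of the 8 spots around each of the 3 bright ZAR1 spots at most 1 was at least 2-fold lower on the high-fertile array. The median difference of the measured spots within 10 rows and 10 columns was -0.05, -0.11 and -0.07, and with it subtracted ZAR1 stood at -1.28. The call of at least 2-fold ended with normexp background correction, where ZAR1 stood at -0.65, and with no filter on dim probes, where the dim probes 3 and 4 enter the mean and ZAR1 stood at -0.61. With spike-in scaling it stood at -1.95. Both ZAR1 probes were too dim on the high-fertile array for the stricter filter (4 times the lowest signal well above background, which was 22.6 there and 30.3 on the low-fertile array), so that setting gives no value.

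ZAR1L, the paralog, had 2 probes on chromosome 12 of HGSC Btau_3.1. Probe 1 (28478744 to 28478803) read 42.5 ± 6.36 for high-fertile and 59.7 ± 8.68 for low-fertile RNA, a log2 difference of -0.16 after scaling. Probe 2 (28478820 to 28478879), shown above, read 5.08 for high-fertile and 23.9 for low-fertile RNA. It was not well above background on either, so no fold is given. Its high-fertile value is a stand-in that Feature Extraction put in place of the spot's own reading. The mean over both probes, as taken with no filter on dim probes, was -1.04. The measured probe of ZAR1L was thus close between the arrays, and its other probe read higher on the low-fertile array at a level near background.

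Of the 9 genes with a probe, 5 gave signal well above background on at least 1 array. They were ZAR1, ZAR1L, NLRP5, DPPA3 and FIGLA, and the first 4 did so on both. Over all gene names 44.8% did so on either array and 36% had a probe well above background on both. The chance to be seen moves with the number of probes: 37% of genes with 1 probe, 53.6% with 2, 64.9% with 3 and 71.5% with 4 gave signal on either array. The number of oocyte genes with signal was therefore near the share of all genes. By probe, 6 of 18 were well above background on both arrays, against 27.6% of all probes.

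The negative-control spots give the floor. Their median signal over 308 spots was 4.89 for high-fertile and 6.67 for low-fertile RNA, and the second-highest read 6.54 and 10.8. A single negative-control spot read 2181 and 1794, above every spot of the oocyte genes. Above the second-highest control spot on at least 1 array, in every spot of a probe, were 7 of the 9 genes, against 76.9% of all gene names. These were the 5 genes above with GDF9 and KPNA7.

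**Figure D2:**
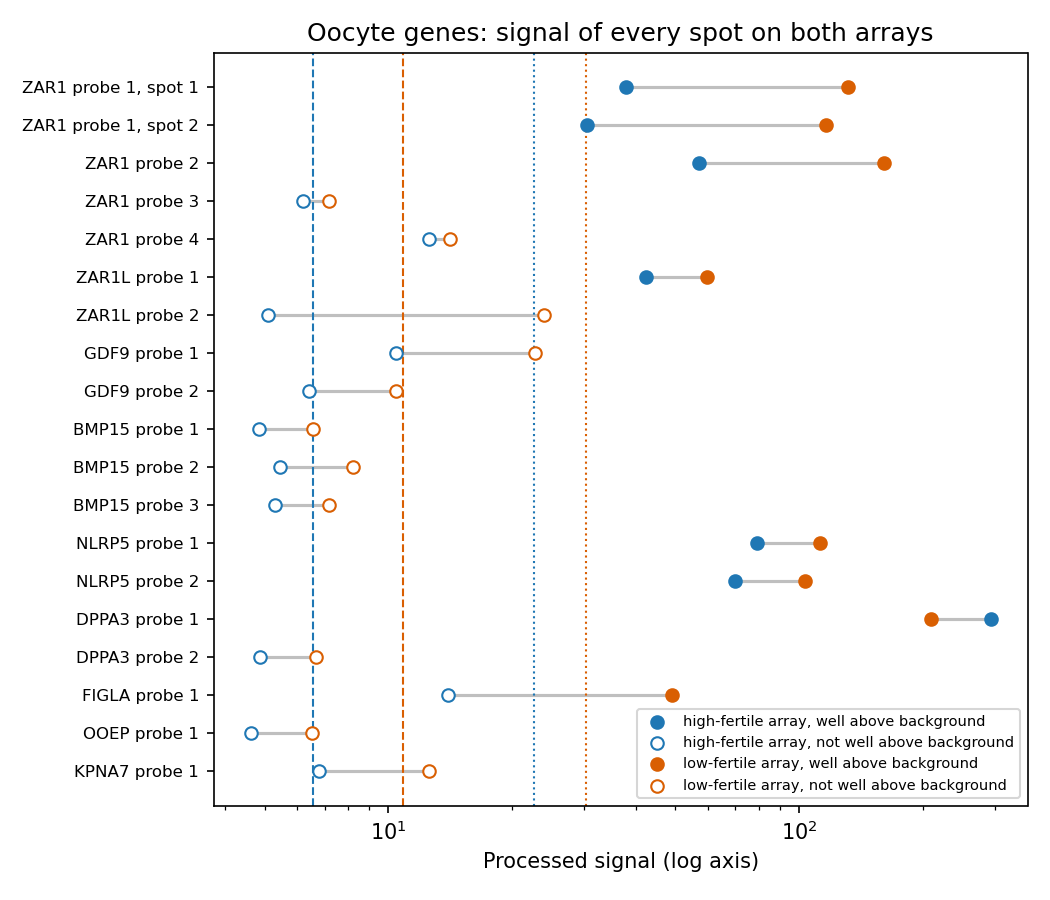
Processed signal (log axis) of all 19 spots of the 9 oocyte genes on both arrays, with filled points for spots well above background, dashed lines at the second-highest negative-control spot and dotted lines at the lowest probe signal well above background of each array. ZAR1 probes 1 and 2, ZAR1L probe 1, both NLRP5 probes and DPPA3 probe 1 are filled on both arrays, FIGLA on the low-fertile array, and the probes of BMP15 and OOEP lie left of the dashed line of each array.

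NLRP5, known as MATER and a core subunit of the subcortical maternal complex, gave signal at both of its probes. They overlap by 12 bases on chromosome 18 (HGSC Btau_3.1, 63813008 to 63813067 and 63813056 to 63813116). Probe 1 read 79.1 ± 9.19 for high-fertile and 112.7 ± 13.0 for low-fertile RNA. Probe 2 read 69.7 ± 8.62 and 103.5 ± 12.7. After scaling NLRP5 differed by -0.22 (SD 0.04 over 2 probes), less than the spread between spots of a probe. Probe 1 shares a stretch of 16 bases on the same strand with a probe of TPRN. That probe read 99.4 for high-fertile and 111 for low-fertile RNA, about as bright as NLRP5 probe 1. Probe 2 shares none with another gene name. OOEP, its partner in the complex, held stand-in values of 4.62 and 6.54 at its only probe on chromosome 9 (12362384 to 12362443). Neither array gave a reading of its own there. One subunit thus gave signal at 2 probes and the other gave none.

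DPPA3, also called STELLA, which protects the maternal genome of the zygote from demethylation, was the only one of the 4 measured oocyte genes that read higher on the high-fertile array. Probe 1, on chromosome 5 from 108751691 to 108751750 (HGSC Btau_3.1), read 292.6 ± 29.6 for high-fertile and 209.7 ± 21.9 for low-fertile RNA, 1.75-fold higher on the former (log2 0.81). Probe 2, from 108754541 to 108754600, held stand-in values of 4.87 and 6.66 and so gave no reading of its own on either array. The probes start at bases 594 and 1280 of the transcripts they were designed on. Probe 1 shares 16 bases on the opposite strand with a probe of FAM160B1, which read 18.7 and 31.4. The DPPA3 signal rests on 1 spot of 1 probe and stayed under 2-fold in each of the 10 alternative settings, from 0.21 with spike-in scaling to 0.91 with the series matrix values.

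FIGLA read 14.004 ± 5.01 for high-fertile and 49.1 ± 8.22 for low-fertile RNA at its only probe, on chromosome 11 from 14236606 to 14236665. It was well above background on the low-fertile array alone. Set against the lowest signal well above background on the other array, FIGLA was at least 1.73-fold higher on the low-fertile array, below the 2-fold used for calls.

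The oocyte growth factors gave no signal well above background. GDF9 read 10.4 and 22.8 at probe 1, with the high-fertile array named first (chromosome 7, 44091314 to 44091373). Probe 2 (44090815 to 44090874) held stand-in values of 6.42 and 10.4. BMP15 had 3 probes, which the array tables leave unmapped. They held stand-in values of 4.85 to 5.45 on the high-fertile and 6.56 to 8.21 on the low-fertile array. All 3 stayed below the second-highest negative control on both arrays. KPNA7 read 6.77 and 12.6 at its only probe (chromosome 25, 38930422 to 38930481), just above that control on each array. BMP15 was thus at the floor, while GDF9 probe 1 was above the second-highest negative control on both arrays without being well above background.

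**Figure D3:**
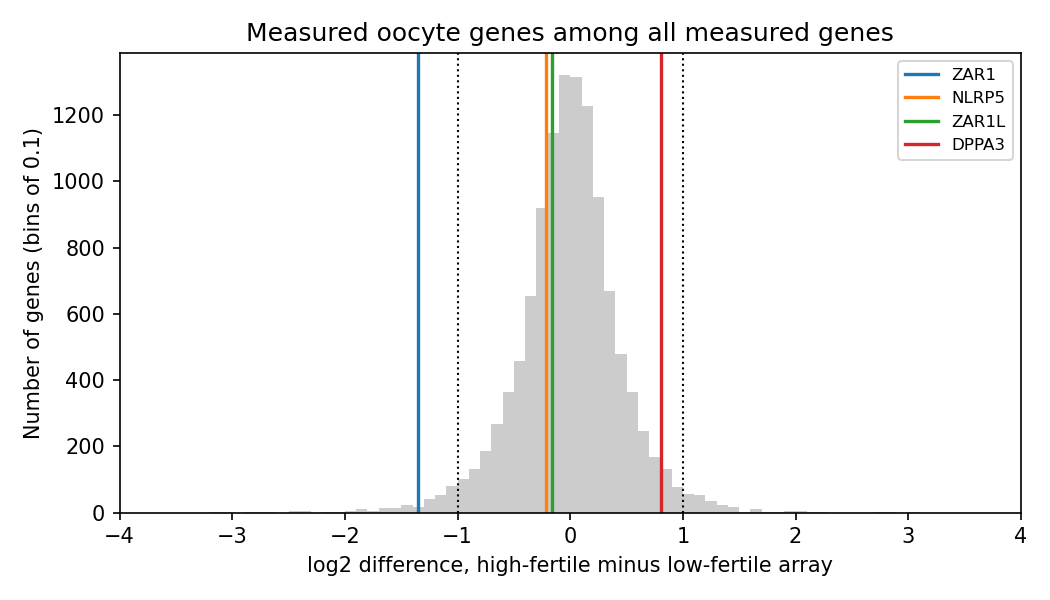
Number of genes per bin of 0.1 of the log2 difference, high-fertile minus low-fertile array, over the 11687 genes measured on both arrays (grey; 1 gene lies beyond 4 in size), with lines at the 4 measured oocyte genes and dotted lines at 2-fold. ZAR1 lies at -1.35, outside the dotted lines, while NLRP5 (-0.22), ZAR1L (-0.16) and DPPA3 (0.81) lie inside.

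Among the 4 oocyte genes measured on both arrays 1 was at least 2-fold lower on the high-fertile array (ZAR1) and 0 were at least 2-fold higher, where 2.44% of all genes were lower and 1.87% higher. Their median was -0.19, against 0.00 for all measured genes. Over all genes 43.3% of the calls were on the higher side, and this share depends on the scaling: it was 59.4% with the 75th percentile over all probes, 59.8% with the series matrix values, 60% with normexp and 1.80% with spike-ins. ZAR1, ZAR1L and NLRP5 were below 0 and DPPA3 was above 0 in each setting that gave them a value, although spike-in scaling shifts the median of all genes to -0.60. The series matrix values and the 75th percentile over all probes are nearly the same scaling, so their likeness is not a second check. The plot of the genes under each setting shows these values.

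**Figure D4:**
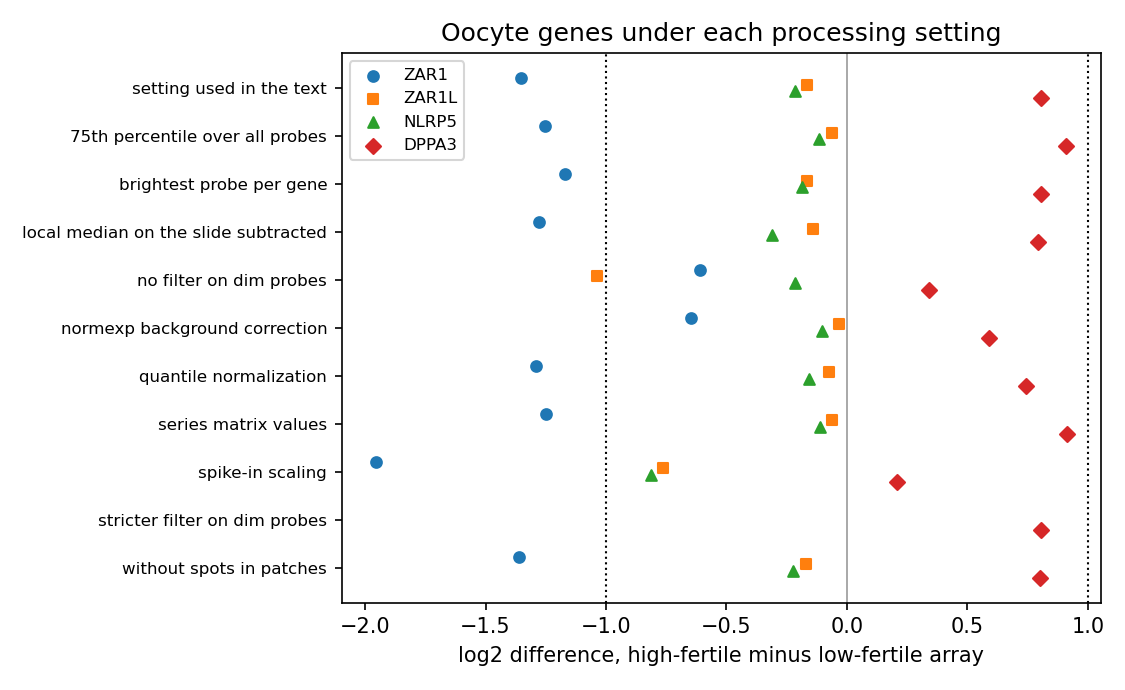
Log2 difference, high-fertile minus low-fertile array, of the 4 measured oocyte genes under the setting used in the text (top) and each alternative, with dotted lines at 2-fold. ZAR1 lies left of the dotted line in 8 of its 10 settings and at -0.65 and -0.61 with normexp and with no filter on dim probes; the stricter filter gives a value for DPPA3 alone.

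Of the genes next to ZAR1 in the reference gene table (assembly ARS-UCD2.0, used for gene order and names only), FRYL was measured on both arrays and SLC10A4 was not. SLC10A4, a transporter gene on one side, had 2 probes. One read 17.3 for high-fertile and 33.9 for low-fertile RNA. It was well above background on the low-fertile array alone, so no difference is given. The other read 4.48 and 6.18 and was not well above background on either. FRYL, on the other side and with a record that overlaps that of ZAR1, had 2 measured probes, 68.9 and 209.4 on the high-fertile against 101.8 and 219.8 on the low-fertile array. FRYL differed by 0.01 (SD 0.35 over 2 probes).

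The genes nearest to ZAR1 in their difference were YPEL5 (-1.39, SD 0.03 over 2 probes), the aminopeptidase ERAP2 (-1.30, SD 0.45) and METTL15, a methyltransferase of the mitochondrial ribosome (-1.30, SD 0.70). They were taken from 765 named genes with at least 2 measured probes of one sign by the smallest gap in the log2 difference, over 2 arrays. None is a gene of the oocyte lists. YPEL5 read 82.6 and 64.1 for high-fertile and 267.8 and 213.4 for low-fertile RNA.

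The wider programme of the oocyte was followed in 10 lists of 77 genes, of which 60 had a probe under that name. Of the 60 genes 34 (56.7%) gave signal on at least 1 array, against 44.8% of all gene names, and 27 were measured on both. Of these 60 genes 37 had 2 or more probes, and the share of all genes with signal was 37% at 1 probe and 53.6% to 71.5% at 2 to 4, so the shares are not on an equal footing. Their median difference was 0.10, with 1 gene at least 2-fold lower (ZAR1) and 1 at least 2-fold higher (NPM1), where 2.44% and 1.87% of all genes were. Many of these genes are also active in male germ cells or somatic cells, and the lists do not mark oocytes alone.

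In the zona pellucida list, the genes of the egg coat that FIGLA switches on, ZP3 read 533.0 for high-fertile and 759.9 for low-fertile RNA at its only probe, a log2 difference of -0.18. ZP2 was well above background at 1 of 3 probes on the low-fertile array (40.0, against 12.9 on the high-fertile array), at least 1.41-fold. ZP4 gave no signal well above background, and ZP1 had no probe under that name. In the subcortical maternal complex 2 of 3 genes with a probe were measured, NLRP5 and the deiminase PADI6, which read 40.6 and 47.7 and differed by 0.10. Of the other NLRP genes, NLRP9 read 20.9 for high-fertile and 63.3 for low-fertile RNA at its only probe. It was well above background on the low-fertile array alone. Its bound was at least 2.23-fold higher there, but it is not among the genes measured on both arrays and was not called. NLRP8 was well above background on neither.

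Of 6 oocyte transcription factors 4 gave signal, each on 1 array only, where 44.8% of all gene names gave signal and 8.78% did so with no probe well above background on both arrays. NOBOX (35.1 against 31.0, at least 1.42-fold) and SOHLH1 (40.4 against 26.2, at least 1.67-fold) were well above background on the high-fertile array. FIGLA and SOHLH2 (23.5 against 37.4 at 1 of 3 probes, at least 1.27-fold) were so on the low-fertile array. LHX8 and TAF4B gave no signal well above background. These factors other than FIGLA were picked for mention once their readings were known. Each reading above background came from 1 dim probe, and every bound is under 2-fold.

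Of the secreted factors and their receptors 9 had a probe and 1 was measured, the receptor BMPR1B (96.2 and 120.2 at 1 of 4 probes, log2 0.00). Besides GDF9 and BMP15 the other 6 without signal were BMP6, OOSP1, FGF8, BMPR2, TGFBR1 and ACVR1B.

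In the list of maternal RNA storage and clearance 7 of 12 genes with a probe were measured, with a median of -0.03, and ZAR1 was the only one at least 2-fold apart. EIF4E1B, a cap-binding protein of the oocyte, read 131.0 for high-fertile and 96.7 for low-fertile RNA (log2 0.76). CPEB1, which binds the polyadenylation element of stored messengers, differed by 0.24 (SD 0.49 over 3 probes), and YBX2, an RNA-storing protein of both male and female germ cells, by 0.43. The germ cell genes DAZL and DDX4 gave no signal well above background.

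In the list of maternal chromatin and methylation 9 of 10 genes with a probe were measured. Their median was 0.54, against 0.00 for all genes, with 7 of 9 above 0 and none at least 2-fold apart. DNMT3L, a cofactor of DNA methylation in germ cells, read 608.3 for high-fertile and 429.2 for low-fertile RNA (log2 0.83). TRIM28, a corepressor that keeps imprints, differed by 0.70 (SD 0.07 over 2 probes), and UHRF1, which brings DNMT1 to new DNA, by 0.76 at 1 of 4 probes. DNMT1 itself (-0.14) and SMARCA4 (-0.13) were the genes below 0, and TET3 (0.15) and H1FOO (0.19) were close between the arrays. DNMT3A had probes at 1.32 and -0.23. With spike-in scaling the list median was -0.06 and 4 of 9 were above 0, while relative to all genes it stayed at 0.54 there; with normexp the median was 0.39.

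Of 4 measured genes of meiotic arrest and maturation CDC25B differed by -0.31 (SD 0.60 over 2 probes) and the phosphodiesterase PDE3A by 0.29, and MOS, the kinase that holds the egg at metaphase, by -0.06. Among the importins KPNA1 differed by -0.48 (SD 0.02 over 2 probes) and KPNA2 by 0.14, and neither was 2-fold apart. NPM1, the nucleolar relative of NPM2, was 1 of 2 nucleoplasmin genes with a probe. It read 120.0 for high-fertile and 61.1 for low-fertile RNA at 1 of 3 probes (log2 1.30). NPM1 stood at 0.75 with normexp, 0.70 with spike-in scaling and 0.73 with no filter on dim probes.

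**Figure D5:**
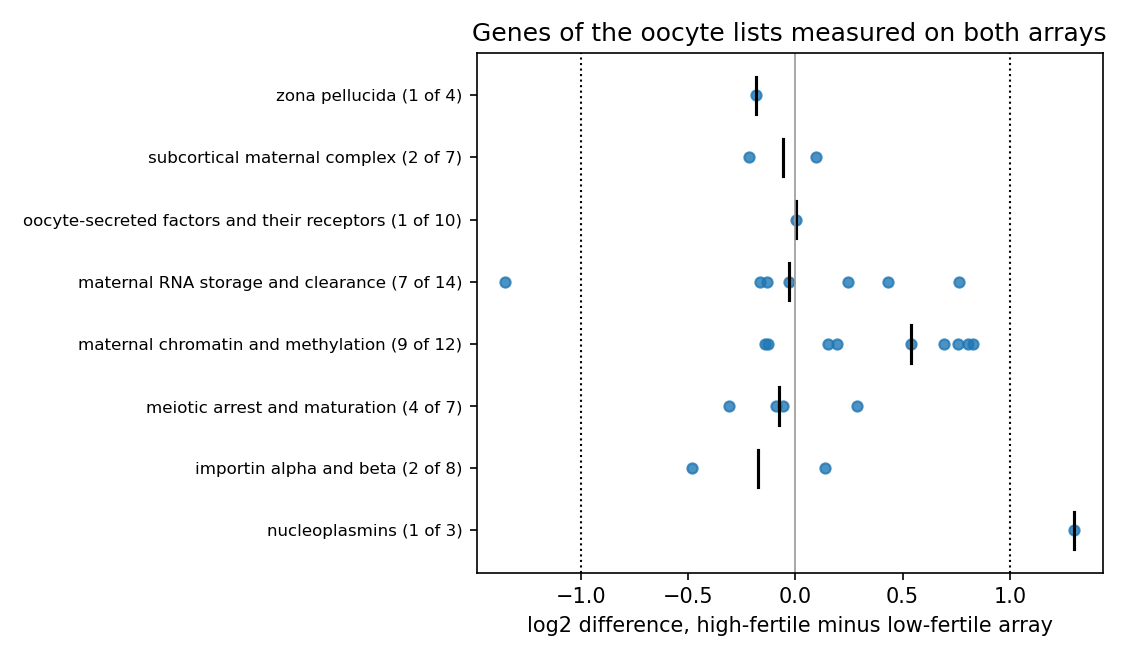
Log2 difference, high-fertile minus low-fertile array, of each gene measured on both arrays in 8 of the oocyte lists (points), with the list median (bar), the count measured of the genes in the list, and dotted lines at 2-fold. ZAR1 at -1.35 and NPM1 at 1.30 are the only genes outside the dotted lines.

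The sample label was checked on marker lists. Of 17 genes of sperm and spermatids 9 were measured, among them TNP1, ODF1 and ACR, while PRM2, AKAP4 and IZUMO1 gave no signal well above background. Over all gene names 36% were measured on both arrays and 44.8% gave signal on at least 1, with 53.6% to 71.5% for genes with 2 to 4 probes. Among markers of other cells 8 of 10 leukocyte genes, 4 of 6 epithelial genes, 6 of 7 testis somatic genes with a probe and 4 of 5 granulosa genes gave signal on at least 1 array. The epithelial markers CDH1 and EPCAM and the granulosa receptor FSHR were not well above background on either. None of the measured genes of these 4 lists was 2-fold apart. In the sperm list TNP2 was 2.34-fold higher (1 of 2 probes) and PRM1 2.14-fold lower on the high-fertile array (2 probes). No sperm gene was 2-fold higher with normexp or spike-in scaling, and none was 2-fold lower with normexp, the 75th percentile over all probes or the series matrix values. With the stricter filter, which leaves 2 of these genes measured, there was none in either direction. The summed signal of each list was compared with itself between the arrays, since sums over different probes cannot be set against each other. Before scaling, the leukocyte sum was 17150 for high-fertile and 27571 for low-fertile RNA. After scaling it was 1.28 times as high on the low-fertile array. Such a sum is weighted to the brightest probes. By gene, the 7 measured leukocyte genes had a median difference of 0.11, with 4 above 0, the other direction from the sum. That median was -0.08 with the brightest probe per gene, so no direction can be read for leukocyte RNA. The scaled ratio, low-fertile over high-fertile, was 1.03 for sperm (1174 and 1517 before scaling), 1.09 for testis somatic cells (1535 and 2089), 0.838 for epithelium (932.2 and 979.8) and 0.738 for granulosa (1179 and 1091). The part of other cells in the ZAR1 difference was not tested.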

How the data were processed

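The deposited scanner tables hold 1-colour intensity values per spot, made with Agilent Feature Extraction 11.5.1.1 per the file headers, with background subtracted and spatial trend removed within each array. Signal is used here as a word for this deposited intensity. The deposited series matrix holds log2 values of the authors; these equalled the log2 processed signals plus a constant (-5.12 and -5.55, within 0.01 for 98.6% of probes on each array; column medians -1.43 and -1.37), so their scale and direction are known. Flags and error estimates are Feature Extraction's. Control spots and 9 outlier spots were left out (2 probes lost), spots of a probe were averaged as log2, and the 75th percentile was taken over the probes well above background on each array (27.6%, under 50%) and subtracted. On the arrays 33.2% and 32.9% of spots were well above background, and 0 were saturated. The number of arrays, 2, limits the precision. A gene is the mean of its probes measured on both arrays, called at an absolute log2 difference of 1. A bound sets the bright probe against the higher of the lowest probe signal well above background and the dim probe's own value.

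The gene names are those of the array tables, which can be old. The genes, lists and alternatives were chosen with earlier results of these data known. The rule for names took all 10 genes, the 2 largest differences per list, the genes beside ZAR1 and the 3 nearest in difference; further names were picked once their values were known. The counting was tested on simulated data with planted changes well beyond 2-fold, less noise between spots than measured here and no spread between probes. That test checks the steps of the counting and does not show how reliable a call near 2-fold is. Alternatives were normexp (limma 3.58.1, R 4.3.3, offset 50), other scalings and filters, the brightest probe, the matrix values, and leaving out spots in patches; the local median on the slide and the second-highest negative control were chosen after seeing the data.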

Additional observations from a re-analysis of the deposited data

How the results depend on the processing

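With 1 array per group nothing could be left out, and no paired analysis was possible because each group has 1 sample. ZAR1 stayed negative in each of its 9 alternatives. It moved by more than the spread between spots in 3: -0.65 with normexp, -0.61 with no filter on dim probes and -1.95 with spike-in scaling; the stricter filter gave no value for ZAR1, ZAR1L or NLRP5. The offset of normexp draws differences toward 0 by construction, and without a filter the dim probes 3 and 4 of ZAR1, at 0.12 and 0.16, enter its mean. The genes at least 2-fold higher, 218, became 814 with no filter, 72 with normexp, 33 with spike-ins and 126 with the stricter filter, which tests 4261 genes. The genes at least 2-fold lower, 285, became 1807, 48, 1798 and 46 in the same order. The share on the higher side was 31.1% with no filter and 73.3% with the stricter filter. The 5 oocyte genes with signal became 0 when the highest negative-control spot was the limit, since that single spot is far above the rest, and 7 with the 95th percentile of those spots, with the positive and significant flag and with the second-highest spot. Without a filter ZAR1L stood at -1.04 through its dim probe. Signals near the lowest probe well above background, 22.6 and 30.3, limit what can be said of GDF9, FIGLA, KPNA7 and ZAR1L probe 2.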

Other observations

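NPM2 has no probe under its name, and 1 probe of another name lists an NPM2 transcript as its next best match over 27 bases. Its spots read 1059 and 1130 on the high-fertile and 791.6 and 764.8 on the low-fertile array, log2 differences of 0.75 and 0.89, which cannot be read as NPM2.

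Feature Extraction marks a weaker class of spots as positive and significant without being well above background. Each probe was counted once, so probes well above background on any array are left out of this class. FIGLA, which was in it on the high-fertile array, is left out for that reason. Of the 18 oocyte probes 4 were in this class on both arrays (ZAR1 probes 3 and 4, GDF9 probe 1 and KPNA7), against 27.2% of all probes. ZAR1L probe 2 was in it on 1 array, against 13.1%. The remaining 6 probes (3 of BMP15, with DPPA3 probe 2, GDF9 probe 2 and OOEP) were in neither class, against 24.1% of all probes.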
